A study of Mus musculus with 2 samples.

Results

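Interferon-stimulated genes and interferon receptors were described in the lung of newborn mice. The set holds 37 genes, picked by symbol: 4 receptor chains, 6 signalling factors, 1 sensor (Ifih1), 1 feedback regulator (Usp18) and 25 effectors. Each symbol was matched to its gene identifier without the version number, and all 37 were found among the 43346 mouse genes of the tables, of which 21461 are protein-coding nuclear genes. The rule uses gene names only.

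Total RNA was sequenced from the lungs of pup 1 and of pup 3 of strain B6NCrl, on the day of birth, with 1 library per pup made from its 2 lungs. The labels name pregnancy 1 for both pups and 1 shared donor identifier, so counting them as n = 2 relies on the pup numbers. There is 1 group and no treatment, infection or mutant, and the labels record no sex. RNA over 200 nt was kept, and 10 ng went into each library with spike-in RNAs.

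Interferons are secreted proteins that warn cells of infection. Type I interferons bind a receptor built from the Ifnar1 and Ifnar2 chains, and interferon gamma binds a receptor of Ifngr1 and Ifngr2 chains. Both receptors act through Janus kinases and STAT proteins. After type I interferon, a complex that contains STAT2 and IRF9 binds the interferon-stimulated response element (ISRE) of target genes, while interferon gamma acts through the gamma-activated site (GAS). The target genes encode effectors that block virus entry, degrade or trap viral RNA, stop translation or mark proteins. Some of them are transcribed at a low level without infection.

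The gene tables held 42189536 expected counts for pup 1 and 37026165 for pup 3, so that the limit a count of 0 allows, 3 counts, equals 0.0711 and 0.081 CPM (counts scaled to the library total). The lung markers were present: 7 of 7 epithelial, 7 of 7 endothelial and 6 of 6 fibroblast genes reached 1 TPM in both pups. TPM is a level per unit of effective transcript length, scaled to the same sum in each library, and a gene was called detected at 1 TPM or more in both pups. Of the blood cell lists, 10 of 10 macrophage and monocyte markers were detected and their TPM summed to 235 in pup 1 and 214 in pup 3, while 0 of 8 T and NK cell markers were detected, with sums of 2.2 and 2.82 TPM. Of the plasmacytoid dendritic cell list 3 of 8 were detected: Tcf4 (74.16 TPM in pup 1 and 84.42 TPM in pup 3), Cox6a2 (25.45 and 24.37) and Ly6d (3.8 and 4.23). Siglech, its defining surface receptor, had 0.24 TPM in pup 1 and 0.37 TPM in pup 3, and Cd209d had 0 counts in both. Of the conventional dendritic cell list 3 of 6 were detected, and of the B cell list 2 of 5. The libraries also differed in 7 milk protein genes, which summed to 1.16 TPM in pup 1 and 127 TPM in pup 3. The 5 red cell genes summed to 55500 and 66600 TPM, and each of them was within 2-fold between the pups. In whole tissue, fewer cells of a type and less RNA per cell cannot be told apart.

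Most of the interferon genes were transcribed in these newborn lungs, and the class means differed by role while single genes overlapped between roles. Of the 37 genes, 32 (86.5%) were detected, beside 12929 (60.2%) of the protein-coding genes, and their median level was 13.0 TPM, beside 4.03 TPM over protein-coding genes. All 4 receptor chains and all 6 signalling factors were detected, and 20 of 25 effectors were. The highest effector, Ifitm2 (mean 1420 TPM), stood 9170-fold above the lowest, Mx1 (0.155 TPM), while the 4 receptors spanned only 3.53-fold and the 6 signalling factors 8.12-fold.

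**Figure D1:**
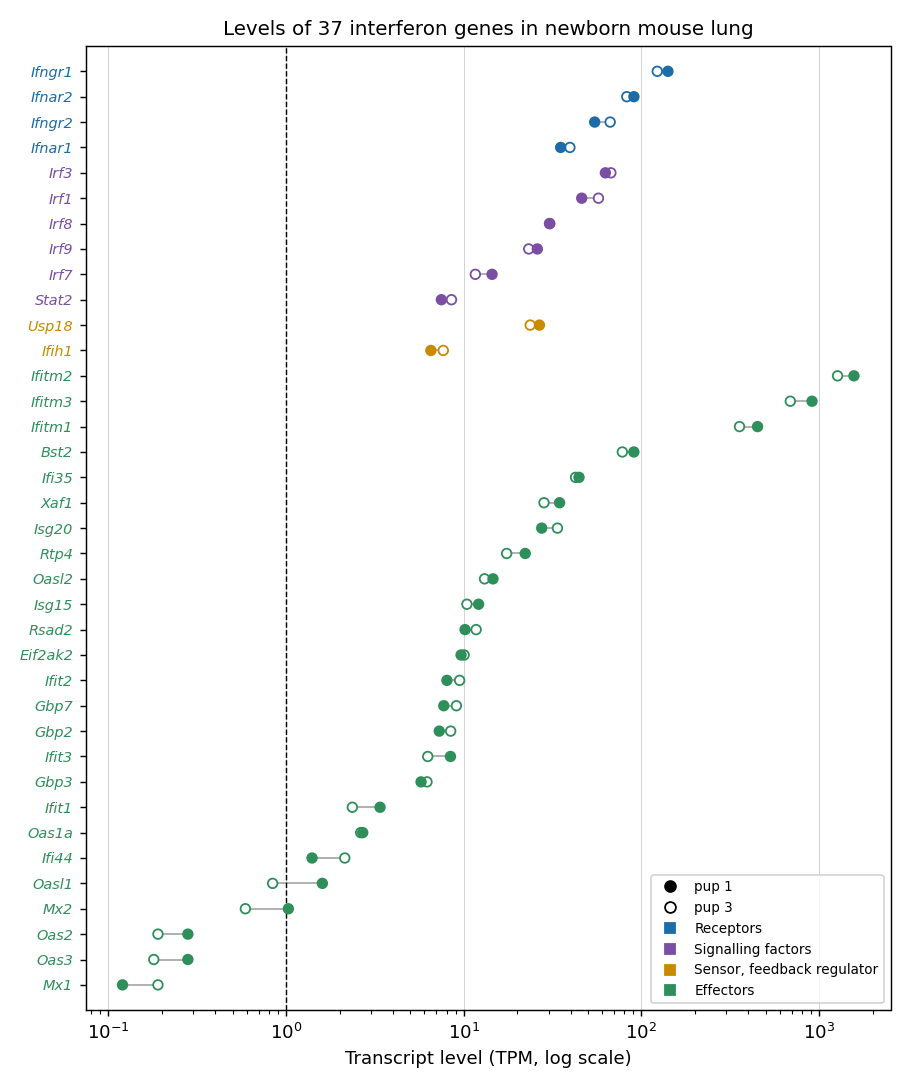
Transcript level (TPM, log axis) of each of the 37 genes, with filled circles for pup 1 and open circles for pup 3, coloured by role and sorted within each role; the dashed line marks 1 TPM. Receptors lie between 35.11 and 141.02 TPM, while effectors run from 0.12 TPM (Mx1) to 1571.20 TPM (Ifitm2).

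The receptors formed a narrow, high band. Ifngr1, the ligand-binding chain of the interferon gamma receptor, had 141.02 TPM in pup 1 and 122.84 TPM in pup 3 and lay at the 95.3rd percentile of protein-coding genes. Ifnar2, the chain of the type I receptor that binds its ligand with the higher affinity, had 90.73 and 82.72 TPM. Ifngr2, the signalling chain of the gamma receptor, had 54.58 and 66.70 TPM. Ifnar1, the partner of Ifnar2, had 35.11 and 39.58 TPM. By TPM the order Ifngr1, Ifnar2, Ifngr2, Ifnar1 was the same in both pups, and no neighbours in it overlapped. Within each receptor the chain with the higher TPM was thus Ifngr1 over Ifngr2 and Ifnar2 over Ifnar1. By expected counts, which are not divided by length, the type I chains were not ordered so. Ifnar2 had 3866 counts in pup 1 and 3187.47 in pup 3, while Ifnar1 had 3823 and 3663, nearly equal in pup 1 and higher in pup 3. Ifnar2 (chr16:91372783-91405589), Ifnar1 (chr16:91485238-91507441) and Ifngr2 (chr16:91547072-91565623) are neighbours on the plus strand of mouse chromosome 16 (GRCm38), and Ifngr1 lies alone at chr10:19591949-19610229.

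The transcript tables showed which form of each receptor was measured. A gene's transcripts were compared by their share of its abundance, a deposited percent, and by their share of its expected counts, which longer transcripts raise. Ifnar2-203, whose coding sequence is 744 bases long, held 76.47% of Ifnar2 abundance in pup 1 and 72.40% in pup 3. Ifnar2-201, with a coding sequence of 1539 bases, held 16.53% in pup 1 and averaged 18.76% ± 3.16 over the pups (SD, n = 2). By expected counts they were closer, at 57.9% and 51.6% for Ifnar2-203 against 36.9% and 44.1% for Ifnar2-201. In the mouse, a short soluble form of IFNAR2 is known beside the long signalling form, and Ifnar2-203 has the shorter coding sequence; which protein each transcript gives was not measured. The annotation also lists Gm21970 over exons of Ifnar2 on the same strand, so reads may have been split between them.

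The other 3 receptors had a protein-coding leader under both measures. Ifngr1-201 held 95.83% and 96.88% of Ifngr1 abundance, and Ifnar1-201 held 66.35% and 67.73% of Ifnar1 abundance. Ifngr2-201 held 80.06% and 81.62% of Ifngr2 abundance, and the rest was Ifngr2-202, a short transcript of 534 bases annotated for nonsense-mediated decay. That transcript took only 3.3% and 3.0% of the counts. Across all 37 genes, 28 had several transcript models, and in 23 of these the same transcript led in both pups.

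**Figure D2:**
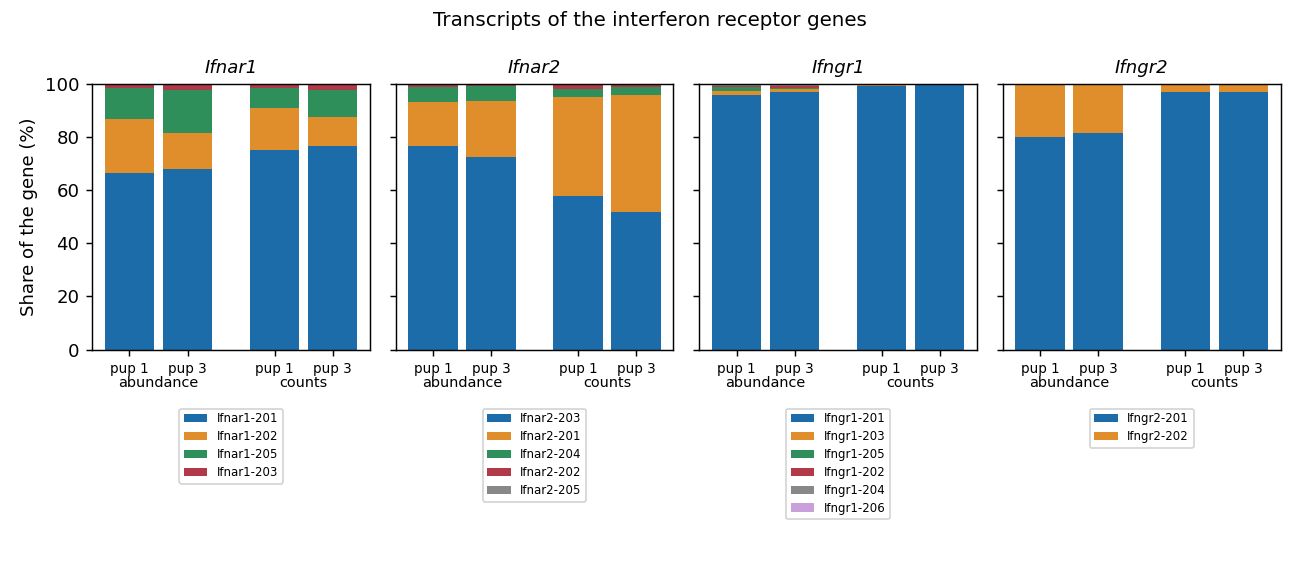
Stacked bars give the share (%) of each receptor gene held by its transcripts, by abundance (left bars) and by expected counts (right bars), in pup 1 and pup 3. Ifnar2 is the receptor whose picture depends most on the measure: Ifnar2-203 holds 76.47% and 72.40% of abundance but 57.9% and 51.6% of counts.

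On a log scale the signalling factors averaged below the receptors and above the effectors. Class medians gave the same order, at 73.7 TPM for receptors, 27.5 for signalling factors and 8.76 for effectors. Unlogged TPM is not ordered so: the 25 effectors summed to 3250 TPM in pup 1 and 2610 in pup 3, mostly from IFITM genes. The 4 receptors summed to 321 and 312 TPM. Single genes also crossed: Irf3 was above Ifngr2 and Ifnar1 in both pups, and Irf1 above Ifnar1. Irf3, a factor held latent in most cells until nucleic acid sensors activate it, had 62.70 TPM in pup 1 and 67.31 TPM in pup 3. Irf1, an early target of interferon gamma, had 46.13 and 57.32 TPM. Irf8, a factor of macrophage and dendritic cell development, had 30.40 and 30.48 TPM, nearly the same in both. Irf9, a DNA-binding factor that pairs with Stat2, had 25.95 and 23.21 TPM. Irf7, which drives type I interferon genes and is itself induced by interferon, had 14.43 and 11.62 TPM. Stat2, the partner of Irf9, had 7.48 and 8.53 TPM, the lowest of the 6. Stat2 was thus below its partner Irf9 in both pups.

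The Irf3 level carries a limit of annotation. Only 2.16% of Irf3 abundance in pup 1 and 5.13% in pup 3 fell on transcripts that the later annotation (GENCODE M21) calls protein-coding. The leading model, with 38.53% and 35.02%, and 6 others of the 9 models are not in that annotation. Exons of Irf3 overlap Bcl2l12 on the opposite strand, and those of Irf7 overlap Phrf1. Whether counting used strand is not given in the sources used here, so whether reads of such partners were counted in these genes is not known. The deposited posterior SD of the count was 0.0% of the count for Irf3 and Irf7 in both pups. These overlaps are those of GENCODE M21, while the deposited files name annotation M4. Exons of Irf9 overlap Rnf31 on the same strand, and those of Irf1 overlap Gm17334 on the other.

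Ifih1, which encodes the sensor MDA5 of long double-stranded RNA, had 6.53 TPM in pup 1 and 7.67 TPM in pup 3. Usp18, which removes ISG15 from proteins and dampens the type I receptor through IFNAR2, had 26.67 and 23.67 TPM. The regulator was thus above the sensor in both pups.

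Among effectors the IFITM family stood far above the rest. IFITM proteins sit in membranes and restrict the fusion of enveloped viruses with the cell. Ifitm2 had 1571.20 TPM in pup 1 and 1270.61 TPM in pup 3 (99.8th percentile of protein-coding genes). Ifitm3 had 912.77 and 688.97 TPM, and Ifitm1 had 450.53 and 356.56 TPM. The 3 genes held 77.4% of the summed TPM of all 37 members in pup 1 and 73.5% in pup 3. By expected counts, which do not divide by length, they held 51080 of 99379 member counts in pup 1 and 34296 of 76525 in pup 3. They lie within chr7:140954837-141010770 and their transcripts are short, at 600 to 678 bases, so the division by effective length weighs strongly in their TPM.

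The next effectors lay well below the IFITM genes. Bst2, or tetherin, which holds budding virions at the cell surface, had 90.69 TPM in pup 1 and 78.10 TPM in pup 3. Ifi35 had 44.54 and 42.60 TPM, and Xaf1, a partner of the apoptosis inhibitor XIAP, had 34.62 and 28.29 TPM. Isg20, an RNA exonuclease, had 27.47 and 33.68 TPM, and Rtp4 had 22.18 and 17.44 TPM. All 5 were above the member median of 13.0 TPM in both pups. Isg15, which encodes a ubiquitin-like protein that is attached to other proteins, had only 12.12 and 10.42 TPM.

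Several classic antiviral genes lay below the member median of 13.0 TPM in both pups. Over all protein-coding genes, of which only 60.2% were detected, their percentiles ran from 42.5 (Ifi44) and 46.5 (Ifit1) to 63.9 (Rsad2). The others here were at 54.8 (Gbp3) or above. Ranks among the detected genes alone would be lower. Of the IFIT proteins, which bind foreign RNA, Ifit2 had 8.04 TPM in pup 1 and 9.48 TPM in pup 3, Ifit3 had 8.42 and 6.27, and Ifit1 had 3.38 and 2.36. Rsad2, or viperin, which makes a chain-terminating nucleotide, had 10.17 and 11.74 TPM, and Eif2ak2, or PKR, which halts translation on double-stranded RNA, had 9.66 and 10.05 TPM. The guanylate-binding proteins, GTPases that attack the vacuoles of intracellular pathogens, lay in a band 1.41-fold wide: Gbp7 at 7.72 and 9.09 TPM, Gbp2 at 7.28 and 8.44, and Gbp3 at 5.75 and 6.21. Ifi44 had 1.40 and 2.14 TPM.

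The oligoadenylate synthetase family, counted here with the OAS-like genes Oasl1 and Oasl2, spread 60.2-fold. Oasl2 had 14.61 TPM in pup 1 and 13.09 TPM in pup 3, and Oas1a had 2.70 and 2.63. Oasl1, which restrains Irf7 translation in mice, had 1.60 and 0.84 TPM, so it passed 1 TPM in pup 1 only. Oas2 had 0.28 and 0.19 TPM on 31 and 16 counts, and Oas3 had 0.28 and 0.18 TPM on 37 and 23 counts. Both were above the limit that a count of 0 allows, but under 1 TPM in both pups. The leading Oasl2 transcript, Oasl2-205, is annotated for nonsense-mediated decay and held 52.78% and 53.38% of abundance, while the full-length protein-coding Oasl2-201 held 13.52% and 13.64%. In Eif2ak2 the measures disagreed: the retained-intron model Eif2ak2-204 led by abundance (50.70% and 54.78%), although the protein-coding Eif2ak2-201 took 80.9% and 81.1% of the counts.

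The MX genes, dynamin-like GTPases that trap viral particles, were low. Mx1 had 0.12 TPM in pup 1 and 0.19 TPM in pup 3 on 10.39 and 14.49 expected counts, and Mx2 had 1.03 and 0.59 TPM on 45.61 and 31.51. Neither was detected by the 1 TPM rule in both pups. Many laboratory mouse strains carry inactivated Mx1 and Mx2 alleles, and GENCODE M21 lists Mx2 as a polymorphic pseudogene. In 4 members (Ifit3, Oas1a, Mx1 and Mx2) the deposited posterior SD of the count was over 1% of the count in at least 1 pup, so reads shared with near copies leave them uncertain.

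The difference between the role means was larger than its spread between the pups, which does not measure the spread of genes within a role. On the log2(TPM + 1) scale the receptors averaged 2.45 ± 0.0906 above the effectors (SD, n = 2), a 5.47-fold difference. The signalling factors averaged 1.01 ± 0.0848 above the effectors (2.01-fold), and the receptors 1.45 ± 0.00586 above the signalling factors (2.72-fold). Receptors minus effectors was 2.39 in pup 1 and 2.52 in pup 3, so both libraries gave the same order. The effector mean includes the 5 genes that were not detected: over the 32 detected members the receptor gap was 1.66 and the gap of the signalling factors 0.21. With 2 pups no exact test can reach the usual threshold, and no p is given.

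The ligands of these receptors were nearly absent. None of the 18 type I interferon genes reached 1 TPM in either pup, and 15 had 0 counts in both. Ifnz had 23.05 expected counts in pup 1 and 8.49 in pup 3, Ifnk had 3 and 3, and Ifnb1 had 0 and 1. Ifng, which encodes interferon gamma, had 4 and 2 counts, and Ifnl2 and Ifnl3 had 0 in both. Levels below these counts were not detectable at this depth. The other parts of the pathway were present: 5 of 5 further receptor chains and kinases were detected, led by Il10rb (79.56 TPM in pup 1 and 93.60 TPM in pup 3), Jak1 (66.86 and 72.95) and Jak2 (8.41 and 8.80). Of the further STAT and IRF genes, Stat3 had 88.16 and 105.46 TPM and Irf2 had 18.05 and 18.86 TPM. Of 13 nucleic acid sensing genes 11 were detected, led by Tbk1 (19.36 and 21.76), Trex1 (18.39 and 17.03) and Ddx58 (13.47 and 15.99).

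The promoters of the members were searched for the cores of the ISRE and the GAS. Promoter sequences were those of RefSeq (GRCm38.p6), from 250 bases before to 50 bases after the start of each gene, and 32 of the 37 members had an entry. The core of the ISRE, GAAANNGAAA on either strand (TTTCNNTTTC on the other), stood in 15 of these 32 (46.9%), beside 3.99% of the 27025 genes and 3.44% of the 32851 promoters in the table. By role it stood in 13 of 21 effectors, in 1 of 6 signalling factors (Stat2), in Ifih1 and in 0 of 4 receptors. Beside 3.99% of all genes, 0 of 4 does not set the receptors apart. The core of the GAS, TTCNNNGAA, which reads the same on both strands, stood in 12 of 32 members (37.5%), beside 9.55% of genes. It was found in 2 of 4 receptors (Ifnar1 and Ifnar2), in 2 of 6 signalling factors (Irf1 and Irf8) and in 8 of 21 effectors. Both cores stood in 5 members, and in 2 of those, Bst2 and Ifitm3, they share bases. A match is a run of letters in the reference, not a measured binding site.

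Of the 13 effectors with the ISRE core, 9 are shown as examples, with levels from the highest, Ifitm2, down to Oas1a. Eif2ak2, Gbp7 and Gbp3, whose levels lie in that range, and Oas3, which lies below it, are not shown. Capitals mark the core, with neighbouring matches included, and the sequence runs 5′ to 3′ in the direction of the gene.
Isg15, chr4:156200860-156200911, minus strand: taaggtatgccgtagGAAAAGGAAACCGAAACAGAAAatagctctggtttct
Ifitm2, chr7:140955983-140956022, minus strand: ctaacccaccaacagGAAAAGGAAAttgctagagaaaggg
Ifitm3, chr7:141010715-141010757, minus strand: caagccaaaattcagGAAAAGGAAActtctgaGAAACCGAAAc
Bst2, chr8:71537572-71537617, minus strand: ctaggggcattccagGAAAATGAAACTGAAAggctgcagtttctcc
Ifit1, chr19:34640770-34640828, plus strand: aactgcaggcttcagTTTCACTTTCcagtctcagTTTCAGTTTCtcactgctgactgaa
Ifit3, chr19:34583358-34583397, plus strand: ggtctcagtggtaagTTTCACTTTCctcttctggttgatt
Rsad2, chr12:26456548-26456587, minus strand: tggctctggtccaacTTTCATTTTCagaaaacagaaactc
Oas1a, chr5:120907515-120907560, minus strand: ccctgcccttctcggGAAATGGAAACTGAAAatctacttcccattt
Gbp2, chr3:142620589-142620628, plus strand: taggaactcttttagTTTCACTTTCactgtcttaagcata

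In Isg15 the core occurs 3 times in overlapping steps of 6 bases, the first 78 bases before the start, and in 7 members it occurs more than once. In Ifitm3 the first core begins 3 bases after the start and in Oas1a 20 bases before it. Among the effectors shown, the core faces forward (GAAA) in Isg15, Ifitm2, Ifitm3, Bst2 and Oas1a and backward (TTTC) in Ifit1, Ifit3, Rsad2 and Gbp2. The 250 bases before the start of Isg15 and of Ifngr1 are set side by side as an effector with the core and a receptor without it.
Isg15, chr4:156200819-156201068, minus strand: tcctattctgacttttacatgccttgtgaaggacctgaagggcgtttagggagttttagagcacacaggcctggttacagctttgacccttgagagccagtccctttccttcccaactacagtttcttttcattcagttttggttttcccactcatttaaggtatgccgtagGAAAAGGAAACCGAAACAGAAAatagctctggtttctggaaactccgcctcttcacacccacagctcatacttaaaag
Ifngr1, chr10:19591699-19591948, plus strand: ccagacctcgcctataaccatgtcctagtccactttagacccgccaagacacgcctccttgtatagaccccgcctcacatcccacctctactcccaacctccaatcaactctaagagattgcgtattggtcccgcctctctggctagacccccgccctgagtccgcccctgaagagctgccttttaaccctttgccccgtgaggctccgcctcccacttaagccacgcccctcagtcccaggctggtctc

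The core did not go with a higher level in these lungs. The 13 effectors with it had a median of 8.4 TPM, from 0.23 (Oas3) to 1420 (Ifitm2), and the 8 without it 22.2 TPM, from 1.22 (Oasl1) to 404 (Ifitm1). Of the 3 IFITM genes, Ifitm2 and Ifitm3 hold the ISRE core in this window and Ifitm1 does not. No match says only that these letters are not in this window.

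No interferon gene with enough counts passed a 2-fold rule between the pups. Expected counts were scaled by TMM, and a gene was said to differ at a ratio of at least 2-fold with at least 50 counts over both libraries and a 95% counting interval that left out equal levels. By that rule 0 of the 35 members with enough counts differed, beside 221 of 15790 genes (1.4%), of which 104 were higher in pup 1 (0.659%) and 117 higher in pup 3 (0.741%). At a share of 1.4% over all genes, 0 of 35 does not set the members apart. The rule sets 1 library against 1 library, with no replicate check and no p. Scaling matters for the direction of small differences: the spike-ins, on 317 and 316 counts, put every log2 ratio 0.14 higher, although the 95% interval of their own ratio, 0.856 to 1.18, includes the TMM value of 1.11. That turned the sign of 8 members whose TMM ratio was slightly below 0 (Ifnar1, Stat2, Irf3, Irf8, Ifi44, Rsad2, Gbp2 and Gbp3), and Oasl1 then passed the rule.

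Small differences leaned slightly towards pup 1, and the lean lay mainly among the effectors. Of the 35 members, 21 had the higher scaled count in pup 1, beside 51% of all genes, and the median log2 ratio of pup 1 over pup 3 was 0.15, beside 0.01 over all genes. The effectors had a median of 0.29, with 16 of 23 higher in pup 1. Many of them are short: 7 are under 1000 bases and 7 from 1000 to under 2000. Of protein-coding genes of these lengths, 75.1% and 62.2% were higher in pup 1. The receptors had a median of 0.02 (−0.02 when scaled by total counts) and the signalling factors −0.04 (0.11 with spike-in scaling). The counting interval lay above equal levels in 17 of 35 members (48.6%), beside 24.6% of all genes, and below in 8 (22.9%), beside 21.6%. Intervals narrow with the count, and these members have a higher median level than protein-coding genes at large.

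The largest ratio was that of Oasl1, with 83 counts in pup 1 and 41 in pup 3 and a log2 ratio of 0.86 (95% interval 0.31 to 1.45). Ifit1 had a log2 ratio of 0.60 (0.32 to 0.89) on 278.64 and 165.85 expected counts. Ifit3 had 0.51 (0.29 to 0.73), while Ifit2, their neighbour on chromosome 19, had 949 counts in each library and a ratio of −0.15 (−0.28 to −0.02). None of the 3 IFIT genes passed the 2-fold rule. The IFITM ratios, also within 2-fold, were 0.49 for Ifitm3, 0.41 for Ifitm1 and 0.39 for Ifitm2. Rtp4 had 0.43, Irf7 0.32, Bst2 0.30, Isg15 0.30, Xaf1 0.29, Ifngr1 0.27, Usp18 0.26 and Irf9 0.24.

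The members higher in pup 3 differed less. Irf1 had a log2 ratio of −0.24 (95% interval −0.31 to −0.17), Ifngr2 −0.23 (−0.29 to −0.17), Isg20 −0.21 (−0.36 to −0.06) and Ifih1 −0.20 (−0.33 to −0.06). The 2 chains of the gamma receptor thus leaned opposite ways, Ifngr1 towards pup 1 and Ifngr2 towards pup 3, as did the chains of the type I receptor under TMM (Ifnar2 0.13, Ifnar1 −0.09), but Ifnar1 turned to 0.06 under spike-in scaling. The 3 GBP genes were lower in pup 1 under TMM, at −0.15 for Gbp7, −0.13 for Gbp2 and −0.02 for Gbp3, and only Gbp7 kept that sign with spike-in scaling. Eif2ak2 had a ratio of 0.00 and Irf8 of −0.04.

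**Figure D3:**
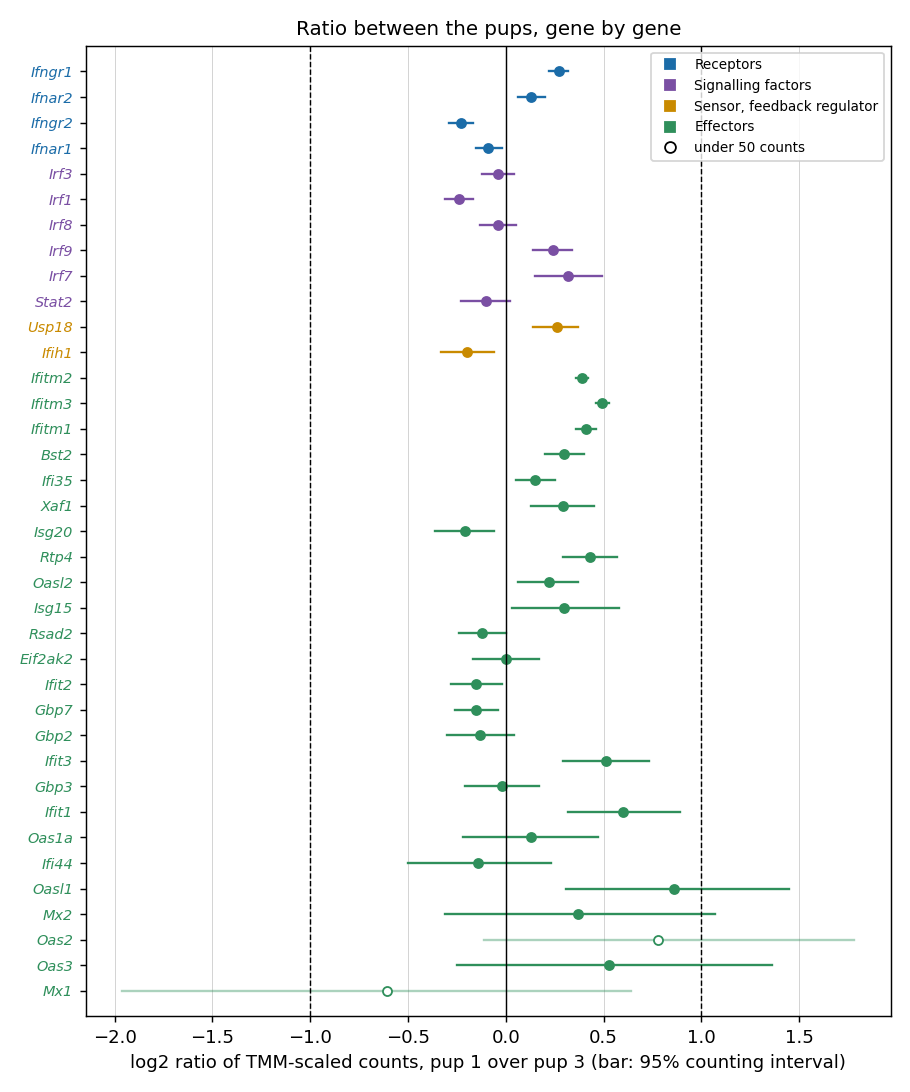
Log2 ratio of TMM-scaled counts, pup 1 over pup 3, for each of the 37 genes (points) with its 95% counting interval (bars); dashed lines mark 2-fold, and open points had under 50 counts. No gene with enough counts lies past 2-fold; under spike-in scaling every point moves 0.14 to the right, and 8 of the signs turn.

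Transcript length moved with these ratios. Over protein-coding genes the median log2 ratio of pup 1 over pup 3 was 0.13 for transcripts under 1000 bases, 0.06 from 1000 to under 2000, −0.01 from 2000 to under 4000 and −0.07 from 4000 bases on. The members' medians in these classes were 0.30, 0.26, −0.09 and −0.13. Of the 7 members under 1000 bases 6 were higher in pup 1 (Isg15, Bst2, Xaf1 and the 3 IFITM genes, with Isg20 the exception), beside 75.1% of protein-coding genes of that length. Of the 4 members from 4000 bases on 1 was (Oas3), beside 33.0% of protein-coding genes. The counts in these end classes are near the shares of all genes of like length, on few members. The middle classes lay further from them. From 1000 to under 2000 bases 10 of 11 members were higher in pup 1, beside 62.2% of protein-coding genes. From 2000 to under 4000 bases 4 of 13 were, beside 47.2%. The rank correlation of length with the ratio was −0.48 across the 35 members and −0.27 across 14134 protein-coding genes, which share the same libraries and are not independent replicates. With the median of the length class taken off, the member median was 0.09, with 21 of 35 above 0, and the effector median 0.16, with 16 of 23 above 0. The Ifitm, Ifit and Oasl1 ratios stayed above their class median except that of Ifit2, and what part length or the other differences between the libraries have in the ratios was not tested.

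**Figure D4:**
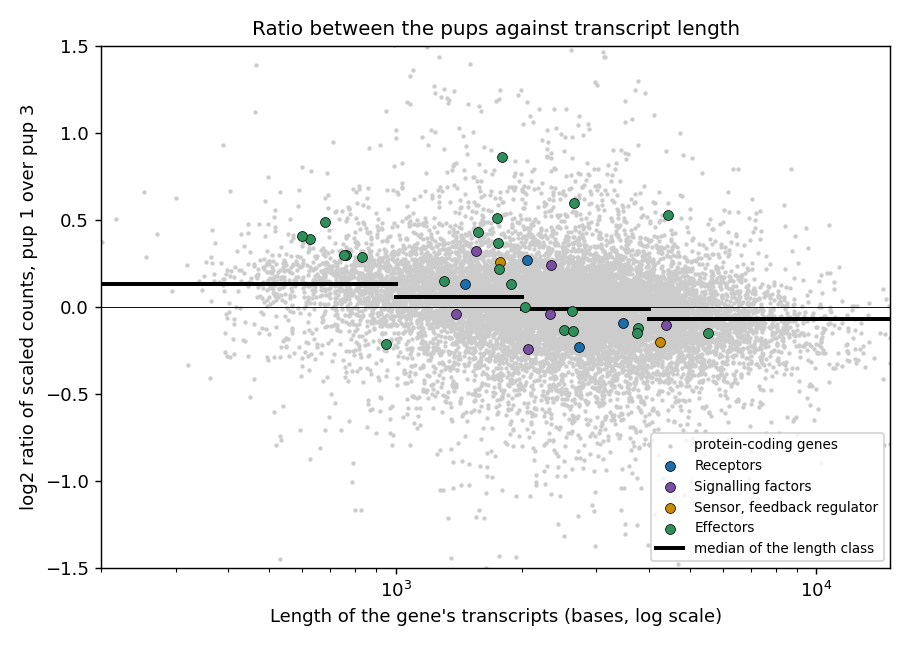
Log2 ratio of scaled counts, pup 1 over pup 3, against transcript length (bases, log axis) for protein-coding genes (grey; 58 of 14134 lie outside the axes) and for members (coloured by role); black lines are class medians. Of the members, all under 1000 bases but Isg20 lie above 0 and all from 4000 bases on but Oas3 lie below it, beside 75.1% and 33.0% of protein-coding genes above 0 in these classes.

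Of the other interferon genes, 2 of 33 tested interferon-stimulated genes and 1 of 12 tested sensing genes differed by the 2-fold rule, beside 1.4% of all genes. Among the 36 further interferon-stimulated genes found, 28 were detected, led by Lgals9 (120.35 TPM in pup 1 and 86.95 TPM in pup 3), Samhd1 (90.38 and 96.88) and Ifi27 (61.48 and 64.39). Ifi27l2a was higher in pup 1, with 493 counts against 204 in pup 3, and Cxcl10, a chemokine that draws T cells, was lower, with 14 counts in pup 1 and 76 in pup 3. Of the sensing genes, Zbp1, a sensor of Z-form nucleic acid, was higher in pup 1, with 66 counts against 26. The 5 feedback inhibitors were all detected, led by Ptpn2 (40.85 and 51.50 TPM), Pias1 (37.21 and 38.46) and Socs3, which had 24.18 TPM in pup 1 and 50.37 TPM in pup 3, just inside the 2-fold limit at a log2 ratio of −0.97. Of the 10 macrophage and monocyte markers 0 differed, with a median log2 ratio of 0.06 and the highest, 0.70, in Ly6c2, which had 964.79 expected counts in pup 1 and 536.78 in pup 3. The 8 neutrophil markers, 6 of them detected, summed to 650 TPM in pup 1 and 659 TPM in pup 3. Most of that was S100a8 (380.65 and 378.87 TPM) and S100a9 (182.36 and 189.75). The median log2 ratio was 0.03 over the 7 tested, of which only Mpo differed (41 counts in pup 1 and 18 in pup 3). Elane, with 23 and 2 counts, leaned the same way but had too few counts for the rule. Ngp (−0.24), Camp (−0.29) and Ltf (−0.40) leaned towards pup 3, and Retnlg (0.40) towards pup 1. The part of these cells in the ratios of the members was not tested.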

How the data were processed

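Total RNA of lung from 2 newborn pups was measured in 1 library each. The authors deposited expected counts per gene and per transcript, per the file headers; these are estimates, so a read that fits several features is divided among them. The TPM values, also deposited, are adjusted for effective length and sum to a fixed total in every library; the deposited FPKM was not used here. A deposited isoform percent gives each transcript's share of its gene. Text files deposited with the libraries name assembly mm10 and annotation M4. Not given in the sources used here were the aligner, the counting program and the use of strand. Names, types and coordinates came from GENCODE M21 on the same assembly (GRCm38), which held 42462 of 43346 genes.

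Members and gene lists were chosen with earlier results of these data known. All 37 members are accounted for; of other pathway lists the 3 genes with the highest mean TPM are named, and any that differs between the pups, except 1 gene that is not reported here. Of 175 listed symbols 171 matched, and Mb21d1, Gbp5, Gbp6 and Gbp10 did not. The promoters of 5 members (Usp18, Oas2, Mx1, Mx2 and Rtp4) had no entry in the RefSeq table. Counts were rounded to whole numbers and TMM scaling was done in edgeR 4.0.16 (R 4.3.3), with a prior count of 0.5 in ratios and an exact conditional binomial 95% interval, which covers counting error only: no molecular identifiers are named in the labels, so reads may not stand for separate molecules. DESeq2 1.42.0 size factors, totals and spike-in counts were alternatives. Roles were compared as mean log2(TPM + 1) within a pup. The size rule was tried on simulated counts with counting error only and planted changes larger than the rule asks. That checks the computation and does not show how the rule performs on real libraries.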

Additional observations from a re-analysis of the deposited data

How the results depend on the processing

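The order receptors, signalling factors, effectors held under every alternative tried, while the size of the gaps moved. All of these alternatives used log2 values of TPM, and neither unlogged means nor expected counts were tried. The gap of receptors over effectors was 2.86 with a pseudocount of 0.1, 1.66 over detected members and 2.88 by medians, and with 1 pup left out it ran between 2.39 and 2.52. The gap of signalling factors over effectors was 1.37, 0.21 and 1.51 under the same settings, and 0.95 to 1.07 with 1 pup left out. The gap of receptors over signalling factors was 1.49 with a pseudocount of 0.1, 1.37 by medians and 1.42 with posterior mean TPM, and 1.44 to 1.45 with 1 pup left out. Detected members numbered 32 to 34 with 1 pup left out. Of the 28 members with several transcripts, 21 had a leading transcript with over 50% of the gene, and 23 to 24 with 1 pup left out.

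Members that differ between the pups numbered 1 with spike-in scaling (Oasl1) and 2 at 1.5-fold (Ifit1 and Oasl1), and 0 under the other 6 settings. Over all genes the count of 221 became 590 from 10 counts on, 701 with no count filter and 799 at 1.5-fold. Spike-in scaling, which called 161 genes higher in pup 1 and 82 in pup 3 where TMM called 104 and 117, moved the median log2 ratio to 0.29 over members, 0.17 over receptors, 0.11 over signalling factors and 0.17 over the sensor and the feedback regulator. Under it the log2 ratio was 0.06 for Ifnar1, 0.04 for Stat2, 0.11 for Irf3, 0.11 for Irf8, 0.01 for Ifi44, 0.02 for Rsad2, 0.02 for Gbp2 and 0.12 for Gbp3, each below 0 under TMM, since this scaling adds 0.14 to every log2 ratio. The alternatives for transcript length and for shares of counts were chosen after seeing the data. No paired analysis was possible because the series has 1 group. With 1 library per pup, the library and the pup cannot be told apart, and genes with few counts (Mx1, Oas2, Oas3, Mx2, Oasl1) have wide intervals.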

Other observations

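The close relatives of the members were mostly lower than the members themselves. Of 19 related genes found, 6 were detected: Ifit3b, Oas1c, Gbp4, Gbp9, Ifitm5 and Ifitm6. Ifitm6 had 7.15 TPM in pup 1 and 6.92 TPM in pup 3 and Ifitm5, known for its role in bone, had 1.27 and 1.67 TPM, so neither came near the other IFITM genes. Gbp9 had 7.47 and 7.58 TPM, within the band of Gbp2, Gbp3 and Gbp7, and Gbp4 had 3.98 and 3.71 TPM. Ifit3b, a near copy of Ifit3, had 2.02 and 1.76 TPM, and Oas1g, a relative of Oas1a, had 0.96 and 0.83 TPM. Reads shared with such copies were divided by estimation.

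The transcripts of other members differed in how firmly 1 form led. Irf8-201 held 70.73% of Irf8 abundance in pup 1 and 79.04% in pup 3, and Irf9-205 held 70.60% and 66.89% of Irf9. In Ifih1 the leading model differed between the pups: Ifih1-202 held 40.83% in pup 1 and 53.27% in pup 3. In Isg20 the models Isg20-203 and Isg20-201, both with a coding sequence of 543 bases, shared most of the abundance, with 48.88% and 46.09% in pup 1. These shares are model estimates and carry no interval here.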
